A study of Mus musculus with 6 samples.

Results

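Elastic fibres are built on microfibrils, and 10 genes of this system were followed in liver RNA: the fibrillins Fbn1 and Fbn2, elastin (Eln), the fibulins Fbln1, Fbln2, Fbln5, Efemp1 (fibulin-3) and Efemp2 (fibulin-4), the microfibril-associated Mfap4 and the elastin interface gene Emilin1. They were taken by gene symbol from the deposited table, where all 10 were found among 28601 genes, and all 10 passed the filter on low counts. The genes were selected on the genotype comparison below, since its results were known when they were proposed. Their values, fold changes and adjusted p-values therefore describe them and are no independent support for a change in elastic fibres. The samples were livers of 6 male mice on CDAHFD, a high-fat diet that lacks choline and holds free amino acids in place of protein and that causes steatohepatitis with fibrosis. Of these, 3 were wild type (WT) and 3 carried PRDX1 Cys52Ser, a substitution at the cysteine through which peroxiredoxin 1 reduces peroxides. The mice were 8 weeks old at the start, and the titles give 8 weeks of diet for all 6. The treatment field instead counts upwards, with 8, 9 and 10 weeks for the WT mice and 11, 12 and 13 weeks for the Cys52Ser mice. Taken literally, that field would leave diet time and genotype impossible to tell apart. The labels give neither strain nor zygosity, and all 6 mice were on the diet, so no group here shows the levels without it.

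Fibrillins assemble into microfibrils outside the cell, and tropoelastin, the product of Eln, is laid down on these and crosslinked by lysyl oxidases. Fibulins connect tropoelastin, microfibrils and the crosslinking enzymes, and microfibrils also hold latent TGF-beta in the matrix. In healthy liver, elastic fibres lie mainly around portal vessels and in the capsule, and they accumulate in fibrotic septa, where portal fibroblasts, activated stellate cells and vascular smooth muscle are known sources.

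Total estimated counts per library lay between 53318196 and 73900923, and the 10 genes together took 6584 to 34831 of them. Levels below are CPM, counts relative to library size after scaling by TMM, a method that sets the bulk of genes equal between libraries. Its factors were 1.05 to 1.21 in WT and 0.814 to 0.963 in Cys52Ser. With library totals alone, the median gene had a log2 fold change of -0.35. The tissue label was checked with 10 hepatocyte genes led by Alb, which summed to 43490 to 75060 CPM in WT and 112700 to 139100 CPM in Cys52Ser, with log2 fold changes above 0 for all 10 and calls for Cps1 and Hnf4a. In bulk tissue, fewer cells of a type and less RNA per cell cannot be told apart. Prdx1 itself was measured at 863.5, 919.5 and 977.8 CPM in WT and 858.6, 660.9 and 819.2 CPM in Cys52Ser, values that cannot show a change of 1 amino acid.

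**Figure D1:**
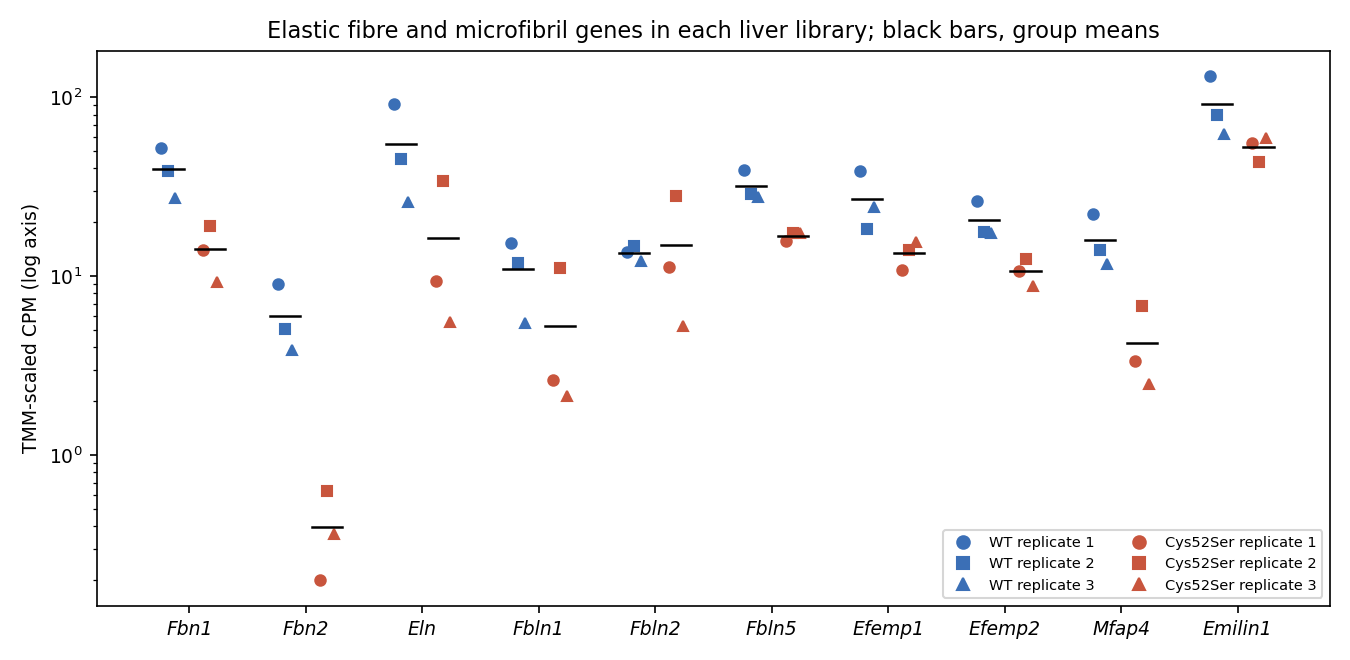
TMM-scaled CPM of the 10 genes (log axis) in the 3 WT (blue) and 3 Cys52Ser (red) libraries, with group means as black bars. Fbn2 is the gene with the widest gap between groups, and Cys52Ser replicate 2 (red squares) lies among or above the WT libraries for Eln, Fbln1 and Fbln2.

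Summed over the 10 genes, the level was 440.5, 274.1 and 218.5 CPM in WT replicates 1, 2 and 3 and 133.7, 187.4 and 126.0 CPM in the Cys52Ser replicates, so the groups did not overlap. Of the 10 genes, 9 had negative log2 fold changes and Fbln2 a positive one, which turned negative with library totals alone. In 7 of 10, every Cys52Ser library lay below every WT library, which was the case for 15.2% of all tested genes (14.4% lay without overlap in the other direction). Fbn2 and Fbln5 passed the test across all genes (edgeR quasi-likelihood test, Benjamini-Hochberg adjusted p below 0.05), both lower. Of the 18648 tested genes 4.98% were called, 2.46% lower and 2.52% higher. The median log2 fold change was -1.03 over the 10 genes and -0.003 over all tested genes. As the genes were chosen with this contrast known, nothing is read from these shares.

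The order of the genes was compared on the deposited FPKM scale, which is per transcript length. In WT, Emilin1 had the highest mean at 18.8 ± 8.80 FPKM (SD, n = 3). Efemp1 followed at 13.5 ± 6.19, Mfap4 at 8.42 ± 3.55 and Eln at 6.93 ± 4.78 FPKM (SD, n = 3 each). Fbn2 was last at 0.460 ± 0.241 FPKM, below Fbln2 at 2.13 ± 0.333 FPKM (SD, n = 3 each). Of the neighbours in this order, Fbln2 and Fbn2 were the only pair whose WT ranges did not overlap. Within each WT library, however, the higher-ranked gene of a pair was also the higher one in all 3 libraries for 7 of 9 neighbouring pairs, the exceptions being Eln with Efemp2 and Fbln1 with Fbln2. In Cys52Ser, Emilin1 (8.32 ± 0.722 FPKM) and Efemp1 (5.16 ± 0.922 FPKM) again led and Fbn2 was again last (0.0233 ± 0.0147 FPKM; SD, n = 3 each). From rank 3 to rank 9 there, each gene's range overlapped that of the next one in this stretch, while Emilin1 and Efemp1, Efemp1 and Efemp2, and Fbn1 and Fbn2 did not overlap. Mfap4 and Eln, at ranks 3 and 4 in WT, were at ranks 6 and 7 by mean in Cys52Ser.

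**Figure D2:**
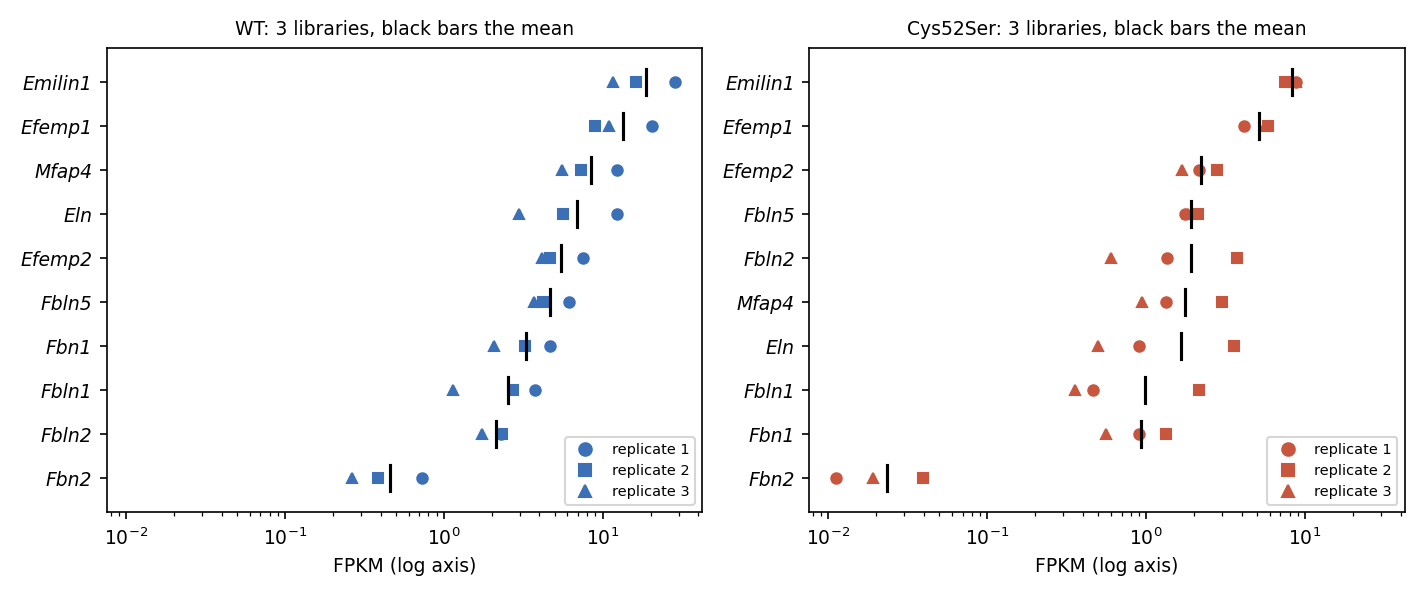
FPKM (log axis) of each gene in the 3 WT libraries (left) and the 3 Cys52Ser libraries (right), ordered by the group mean (black bars). Emilin1 and Efemp1 lead in both groups and Fbn2 is last in both, while Mfap4 and Eln stand lower in the order in Cys52Ser.

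Fbn1 encodes fibrillin-1, the main microfibril protein of adult tissue, and Fbn2 encodes fibrillin-2, best known from development. RNA of both genes was lower in every Cys52Ser library than in every WT library. Fbn2 (ENSMUSG00000024598, GRCm38 chromosome 18, 58008623 to 58210487) had 9.01, 5.08 and 3.85 CPM in WT replicates 1, 2 and 3 and 0.199, 0.626 and 0.364 CPM in the Cys52Ser replicates. These levels rest on 712, 309 and 222 counts in WT and on 13, 34 and 19 counts in Cys52Ser. The lowest WT library was thus well above the highest Cys52Ser library. The log2 fold change was -3.92 (SE 0.536), or 15.1-fold lower (edgeR adjusted p = 0.0198). The call was lost when WT replicate 2 was left out, and likewise for replicates 1 and 3 of Cys52Ser (edgeR adjusted p = 0.061, 0.0671 and 0.0775). Fbn1 (ENSMUSG00000027204, chromosome 2, 125300594 to 125507993) had 52.2, 38.9 and 27.3 CPM in WT and 14.1, 19.1 and 9.30 CPM in Cys52Ser. The groups did not overlap for Fbn1 either, and its log2 fold change of -1.48 (95% confidence interval -2.24 to -0.72) stood just outside the threshold (edgeR adjusted p = 0.0504). The balance between the fibrillins, which library scaling does not touch, also differed. Fbn2 made up 13.6%, 10.6% and 11.4% of the summed FPKM of both fibrillins in the WT libraries and 1.23%, 2.88% and 3.29% in the Cys52Ser libraries. Fbn1 and Fbn2 overlap the gene models Gm9913 and Gm26507 on the opposite strand. Gm9913 had at most 6 counts in a library, and Gm26507 was not analysed here.

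RNA of elastin itself varied widely between mice of the same group. Eln (chromosome 5, 134702593 to 134747323) had 92.1, 45.2 and 26.1 CPM in WT and 9.41, 34.2 and 5.57 CPM in Cys52Ser. Cys52Ser replicate 2 lay inside the WT range, while the other two Cys52Ser libraries lay below it. The log2 fold change was -1.73 (95% confidence interval -3.78 to 0.31, edgeR adjusted p = 0.292). Without Cys52Ser replicate 2 it was -2.86 (edgeR adjusted p = 0.0753). Relative to Fbn1 in the same library, Eln stood at 2.64, 1.74 and 1.43 times its FPKM in WT and at 1.0, 2.68 and 0.892 times in Cys52Ser, again with replicate 2 apart from replicates 1 and 3. An antisense gene model, Gm30003, overlaps Eln and was not analysed here.

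The fibulins did not share 1 pattern. Fbln5, encoding the fibulin that tethers elastin to cells through integrins, had the least spread in Cys52Ser relative to its mean, at 16.8 ± 0.936 CPM against 32.0 ± 6.33 CPM in WT (SD, n = 3 each). It had 39.2, 28.8 and 27.8 CPM in WT and 15.8, 17.4 and 17.4 CPM in Cys52Ser. The groups did not overlap, and Fbln5 was 1.9-fold lower (log2 fold change -0.93, SE 0.154, edgeR adjusted p = 0.0267). The call was lost without WT replicate 2 or without any 1 of the Cys52Ser replicates 1, 2 and 3 (edgeR adjusted p = 0.0652, 0.0973, 0.054 and 0.097). Efemp2, whose protein brings lysyl oxidase to tropoelastin, had 26.4, 17.7 and 17.3 CPM in WT and 10.6, 12.5 and 8.81 CPM in Cys52Ser. It did not overlap between groups and stood just outside the threshold (log2 fold change -0.95, SE 0.212, edgeR adjusted p = 0.0511). Efemp1 had 38.9, 18.2 and 24.2 CPM in WT and 10.8, 13.9 and 15.5 CPM in Cys52Ser (log2 fold change -1.02, SE 0.287, edgeR adjusted p = 0.0927). For Efemp1 the gap between WT replicate 2 and Cys52Ser replicate 3 was small.

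Fbln1 and Fbln2, which bind fibronectin, proteoglycans and basement membrane proteins as well as elastic fibres, overlapped between groups. Fbln1 had 15.3, 11.9 and 5.48 CPM in WT and 2.62, 11.04 and 2.14 CPM in Cys52Ser. Its log2 fold change was -1.05 (95% confidence interval -2.75 to 0.65, edgeR adjusted p = 0.452), and -2.19 without Cys52Ser replicate 2 (edgeR adjusted p = 0.06). Here Cys52Ser replicate 2 was about level with WT replicate 2. Fbln2 had 13.7, 14.8 and 12.2 CPM in WT and 11.2, 28.2 and 5.28 CPM in Cys52Ser. It was the only gene of the 10 whose highest library was a Cys52Ser library. Its log2 fold change was 0.14 (95% confidence interval -1.19 to 1.46, edgeR adjusted p = 0.923), and -0.71 without Cys52Ser replicate 2 (edgeR adjusted p = 0.249). Relative to Fbn1 in the same library, Fbln2 stood at 0.498, 0.722 and 0.844 times its FPKM in WT and at 1.51, 2.80 and 1.08 times in Cys52Ser, so that this ratio was higher in every Cys52Ser library.

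Of the fibulin genes, 4 have a RefSeq start (GRCm38.p6) within 100 bases of the gene's edge in the deposited table. These are Fbln5, Efemp2 and Efemp1, whose groups were apart, and Fbln1, whose groups overlapped. The 250 bases upstream of this annotated start are shown for these 4 genes. Each is written 5′ to 3′ on the gene's strand, and capitals mark matches to any of 5 motifs on either strand: the GC box bound by SP1 (GGGCGG), the TATA box (TATAAA), a SMAD box (CAGACA), the AP-1 site (TGANTCA) and the CArG box bound by SRF. The windows are chr12:101819120-101819369 on the minus strand for Fbln5, and chr19:5473696-5473945, chr11:28852955-28853204 and chr15:85205699-85205948 on the plus strand for Efemp2, Efemp1 and Fbln1.
Fbln5: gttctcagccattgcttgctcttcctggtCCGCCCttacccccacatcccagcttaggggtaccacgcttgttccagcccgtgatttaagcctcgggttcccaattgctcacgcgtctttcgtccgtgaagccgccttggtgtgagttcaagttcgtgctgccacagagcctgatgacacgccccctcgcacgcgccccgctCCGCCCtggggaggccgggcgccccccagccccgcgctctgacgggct
Efemp2: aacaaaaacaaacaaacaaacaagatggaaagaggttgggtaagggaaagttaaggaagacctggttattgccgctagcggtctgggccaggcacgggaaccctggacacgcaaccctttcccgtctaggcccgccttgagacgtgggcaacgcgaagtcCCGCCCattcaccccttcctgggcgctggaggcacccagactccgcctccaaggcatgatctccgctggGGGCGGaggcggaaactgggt
Efemp1: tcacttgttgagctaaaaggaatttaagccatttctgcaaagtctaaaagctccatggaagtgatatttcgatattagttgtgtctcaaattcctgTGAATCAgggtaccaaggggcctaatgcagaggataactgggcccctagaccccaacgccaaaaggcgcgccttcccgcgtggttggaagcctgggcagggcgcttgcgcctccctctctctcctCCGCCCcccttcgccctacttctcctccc
Fbln1: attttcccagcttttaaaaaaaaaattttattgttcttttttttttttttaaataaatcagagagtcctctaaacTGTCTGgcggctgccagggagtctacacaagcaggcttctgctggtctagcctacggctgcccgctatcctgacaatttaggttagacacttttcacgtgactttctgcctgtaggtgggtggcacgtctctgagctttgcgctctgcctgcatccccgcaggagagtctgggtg

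Fbln5 and Efemp2 each held 2 GC boxes, and Efemp1 held 1 GC box and 1 AP-1 site. The Fbln1 window held 1 SMAD box and no GC box. In these 4 windows no match overlapped a match to another motif. Over all 32851 upstream windows of the same length, 32.7% held a GC box, 17.1% the SMAD box, 6.75% the AP-1 site, 12.4% the TATA box and 1.47% the CArG box. For the 10 genes, windows on chromosome 18, where Fbn2 lies, were left out, so Fbn2 was not examined. Of the 10, 7 had a window in the set that remained. Neither a TATA box nor a CArG box was found in any window of these 7. Fbln1, Fbln5 and Efemp2 have further annotated starts, and a second Fbln1 window that begins 59 bases further on did hold a GC box. A second Fbln5 window, 571 bases from the gene's edge in the deposited table, held 1 SMAD box and no GC box. Among the members not shown, Fbn1 and Emilin1 had groups apart, and Fbln2 had overlapping groups. The windows of Fbn1 and Fbln2 each held 1 GC box, and that of Emilin1 held 1 SMAD box and no GC box. These matches describe letters in the windows and were not tested against the measured levels.

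Mfap4, a fibrinogen-related protein that binds elastin and fibrillin, and Emilin1, a glycoprotein at the interface of elastin and microfibrils, complete the 10. Mfap4 (chromosome 11, 61485431 to 61488900) had 22.1, 14.0 and 11.7 CPM in WT and 3.35, 6.83 and 2.51 CPM in Cys52Ser. The groups did not overlap, and the log2 fold change of -1.92 (SE 0.422) was the second largest of the 10 in size, just outside the threshold (edgeR adjusted p = 0.0521). Emilin1 (chromosome 5, 30913402 to 30921277), the most abundant of the 10, had 131.4, 79.6 and 62.6 CPM in WT and 55.7, 43.6 and 59.1 CPM in Cys52Ser. Every Cys52Ser library was below every WT library, but by little for Cys52Ser replicate 3 against WT replicate 3, and the gene did not pass (log2 fold change -0.79, SE 0.276, edgeR adjusted p = 0.15). Mfap4 and Efemp2 share bases with Mapk7 and Mus81 on the opposite strand. Mapk7 had 812, 566 and 327 counts in WT and 450, 327 and 297 in Cys52Ser, and Mus81 938, 617 and 533 in WT and 600, 466 and 526 in Cys52Ser. The sources used here do not say if strand was used in counting, and to that extent both members are uncertain.

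**Figure D3:**
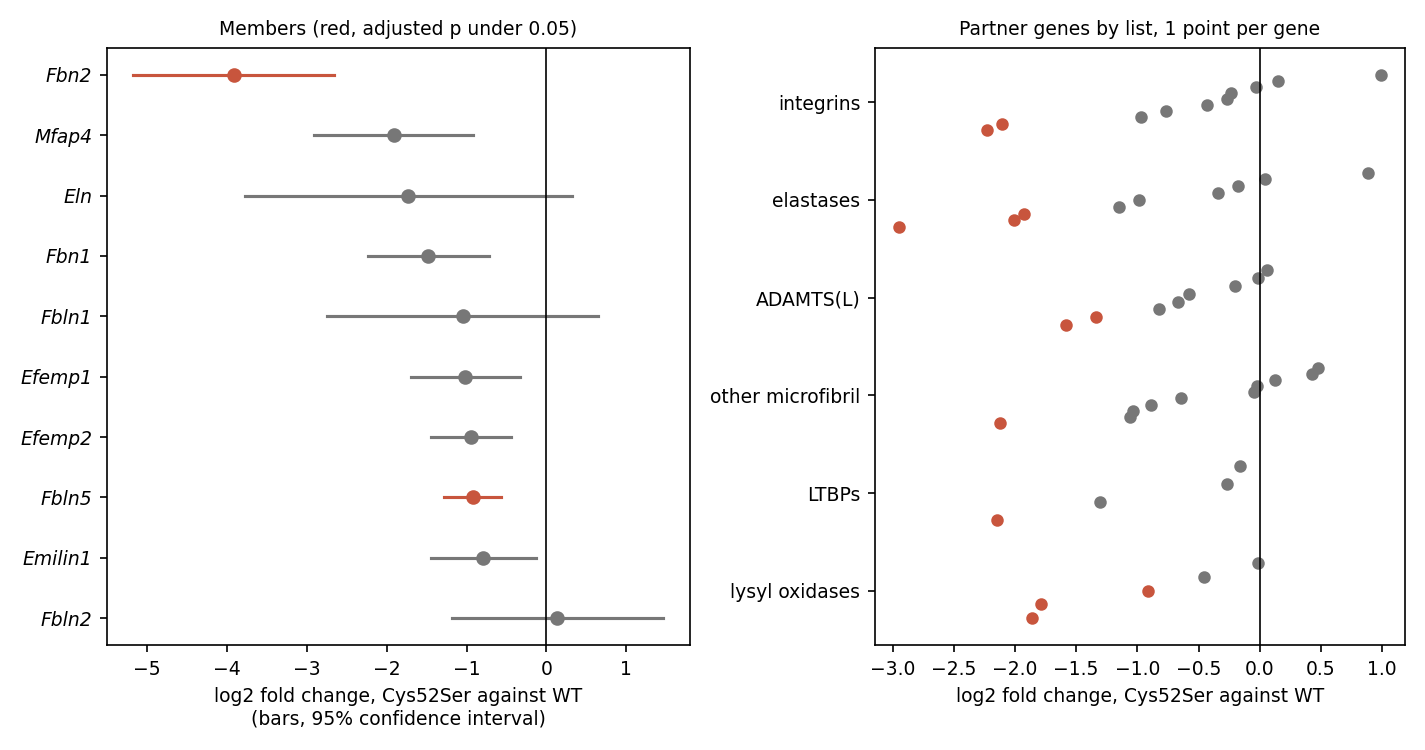
Log2 fold change of Cys52Ser against WT for the 10 genes with 95% confidence intervals (left) and for the 46 tested partner genes by list (right, 1 point per gene); red marks an edgeR adjusted p below 0.05. Fbn2 at -3.92 stands furthest from 0 on the left, and the 12 called partner genes on the right all lie below 0.

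Single libraries set part of this picture. WT replicate 1 was the highest WT library for 9 of the 10 genes, against 37.3% of all tested genes, and WT replicate 3 the lowest for 9. Cys52Ser replicate 2 was the highest Cys52Ser library for 7 of the 10, against 31.7% of all tested genes. The exceptions were Efemp1 and Emilin1, which Cys52Ser replicate 3 led, and Fbln5, for which Cys52Ser replicates 2 and 3 were level at 17.4 CPM. The log2 fold changes without each library in turn moved furthest when Cys52Ser replicate 2 was left out, for Eln, Fbln1 and Fbln2. Fbn2 kept 3.54 or more in size below 0 in these 6 fits, with adjusted p from 0.0317 to 0.0775. The number of the 10 genes called lower was 2 with all libraries, 0 when WT replicate 2 or either of the Cys52Ser replicates 1 and 3 was left out, and 3 without Cys52Ser replicate 2 (Fbn1, Fbn2 and Mfap4). Such fits leave 2 mice in 1 group.

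**Figure D4:**
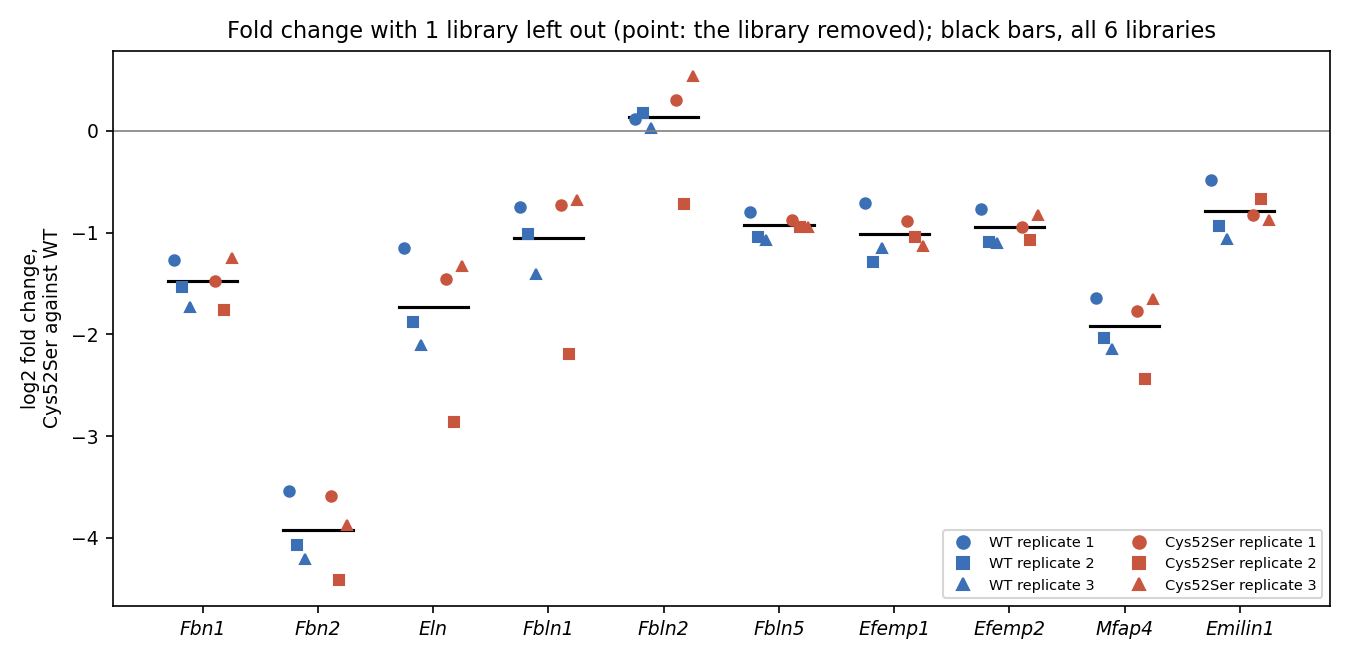
Log2 fold change of each gene when 1 library is left out (the marker shows the library removed) beside the value from all 6 libraries (black bars). Leaving out Cys52Ser replicate 2 (red squares) moves Eln to -2.86, Fbln1 to -2.19 and Fbln2 to -0.71.

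Markers of cells that can make elastic fibres, and of others in the tissue, are given beside these values. Their part in the results was not tested. A gene that fell or rose is one called lower or higher, as were 2.46% and 2.52% of all tested genes. The 12 smooth muscle genes summed to 191.4, 194.5 and 157.6 CPM in WT and 144.6, 517.1 and 137.3 CPM in Cys52Ser, so Cys52Ser replicate 2 stood apart, as it did without Mylk, the most abundant of them (426.4 CPM against 59.1 to 137.5 CPM in the other 5 libraries). Myh11, the smooth muscle myosin, was 87.3 CPM in that library and 4.23 to 14.4 CPM in the other 5. None of the 10 tested smooth muscle genes passed in either direction. Their log2 fold changes were positive for 8 and negative for 2, and the groups overlapped for each gene. The 12 portal fibroblast genes summed to 464.4, 269.1 and 193.5 CPM in WT and 117.3, 230.6 and 107.6 CPM in Cys52Ser, with the same libraries on top within each group as for Eln. Without Gsn, its most abundant gene, the other 11 summed to 238.2, 154.7 and 111.6 CPM in WT and 56.2, 104.8 and 50.9 CPM in Cys52Ser, and the groups no longer overlapped. Of the 12, 3 fell and none rose: Dpt (4.74-fold lower), Cd200 (2.68-fold lower) and Entpd2 (2.0-fold lower). The log2 fold changes were negative for 9 and positive for 3, with a median of -0.41. In 4 of the 12 every Cys52Ser library lay below every WT library (15.2% of all tested genes).

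The 12 stellate cell genes summed to 643.1, 516.0 and 470.8 CPM in WT and 332.3, 366.0 and 433.9 CPM in Cys52Ser, without overlap, and did not overlap without Reln, the most abundant of them, either. Of the 12, 4 fell, namely Ngfr (2.90-fold lower), Cygb (2.84-fold lower), Rgs5 (1.96-fold lower) and Lrat (1.51-fold lower), and none rose. Their log2 fold changes were negative for 10 and positive for 2. In 9 of the 12 every Cys52Ser library lay below every WT library (15.2% of all tested genes). In 1, Vipr1, every one lay above (14.4% of all tested genes). Vipr1 was 1.89-fold higher (edgeR adjusted p = 0.0555). Of the 10 cholangiocyte genes, which mark bile ducts and the ductular reaction, only Pkhd1 fell, by 3.57-fold. Their log2 fold changes were negative for 7 and positive for 3. In 5 of the 10 every Cys52Ser library lay below every WT library, and in 1 every one lay above (15.2% and 14.4% of all tested genes). Their sum was 1345, 733.4 and 645.4 CPM in WT and 202.8, 462.0 and 170.8 CPM in Cys52Ser. Most of this sum was Spp1 (osteopontin), which other liver cells also make and which had 1161, 617.6 and 558.1 CPM in WT and 141.1, 334.5 and 115.8 CPM in Cys52Ser. The other 9 genes summed to 183.7, 115.8 and 87.3 CPM in WT and 61.7, 127.5 and 55.0 CPM in Cys52Ser, so that without Spp1 the groups overlapped through Cys52Ser replicate 2. None of the 9 tested mesothelial genes passed. Their log2 fold changes were negative for 8 and positive for 1, with a median of -1.39. In 5 of the 9 every Cys52Ser library lay below every WT library (15.2% of all tested genes). Their list summed to 40.9, 30.8 and 30.4 CPM in WT and 18.9, 34.9 and 5.28 CPM in Cys52Ser, with Gpm6a as the most abundant. No listed gene of these 5 cell types was at 0 in all 6 libraries. Of 10 endothelial genes, Cdh5 (1.76-fold higher) and Kdr (1.57-fold higher) rose and none fell, and the most abundant, Eng, had a log2 fold change of -0.04. Of 10 macrophage genes 4 fell (Gpnmb, Trem2, Cd9 and Lyz2) and Clec4f rose. The macrophage list was split, with log2 fold changes negative for 7 and positive for 3. In 5 of the 10 every Cys52Ser library lay below every WT library, and in 3 every one lay above (15.2% and 14.4% of all tested genes). Among these called markers and those of hepatocytes, Hnf4a, Lrat, Cygb, Entpd2, Dpt, Pkhd1, Cdh5 and Cd9 overlap another annotated gene.

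**Figure D5:**
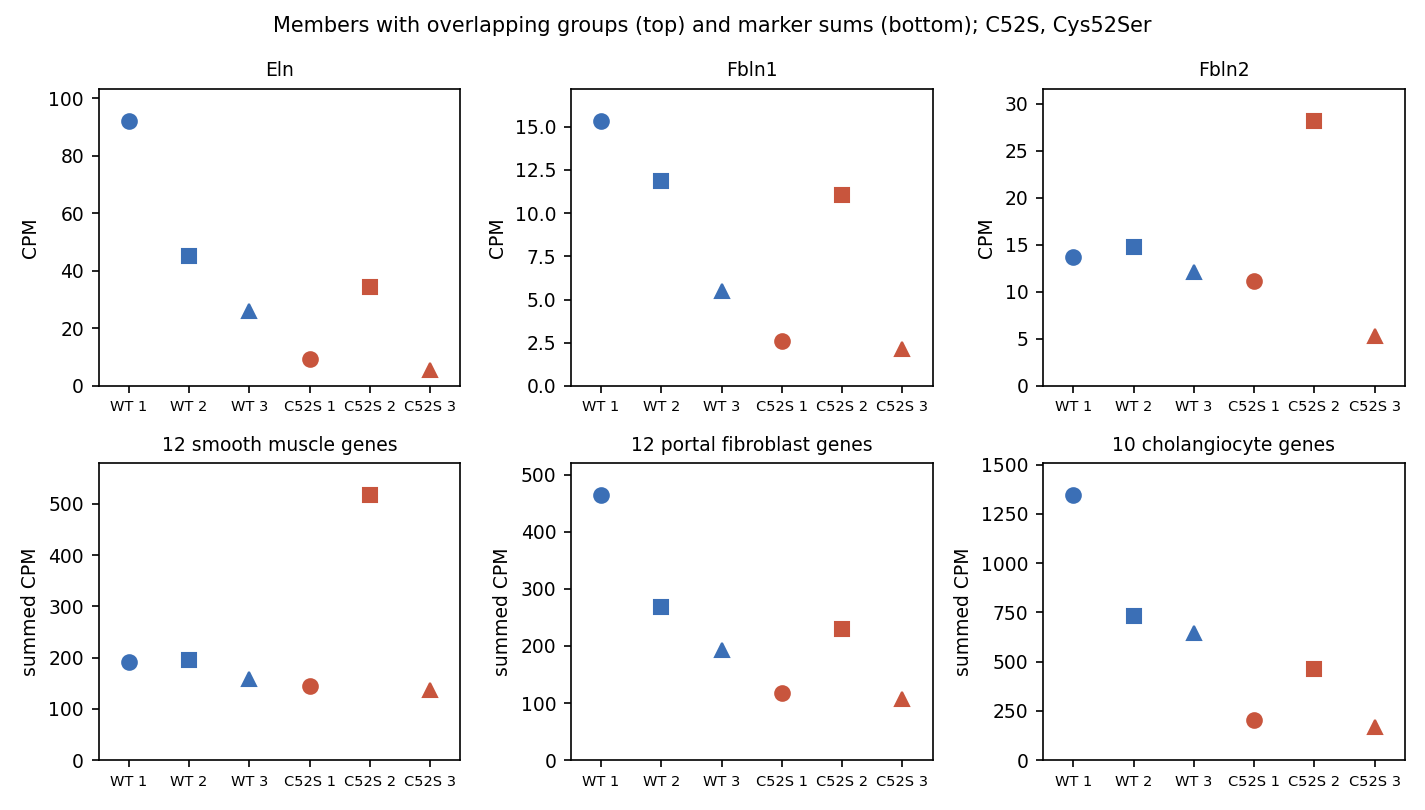
CPM of Eln, Fbln1 and Fbln2 in each library (top) above summed CPM of smooth muscle, portal fibroblast and cholangiocyte markers (bottom); C52S stands for Cys52Ser. Cys52Ser replicate 2 is the highest Cys52Ser library in all 6 panels and the highest of all 6 libraries for Fbln2 and the smooth muscle sum, at 28.2 and 517.1 CPM.

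The other genes of the system were taken from 6 lists with 52 partner genes. Of the 46 tested, 12 fell and none rose, against 2.46% and 2.52% of all tested genes. Log2 fold changes were negative for 38 and positive for 8, with a median of -0.61 against -0.003 over all tested genes. In 21 of the 46 every Cys52Ser library lay below every WT library (15.2% of all tested genes). In 2, Mmrn2 and Itgb3, every one lay above (14.4% of all tested genes). The lists were chosen with earlier results of these data known, so nothing is read from these shares. The 12 called genes became 7 without WT replicate 1, 3 without Cys52Ser replicate 2, and 0 when WT replicate 2 or either of the Cys52Ser replicates 1 and 3 was left out. Of the 5 lysyl oxidases, which crosslink elastin and collagen, 3 fell. Lox had 21.8, 14.2 and 12.3 CPM in WT and 4.93, 6.55 and 2.51 CPM in Cys52Ser (3.46-fold lower, edgeR adjusted p = 0.0473). Loxl1, the family member tied most closely to elastin upkeep, had 47.5, 24.2 and 23.2 CPM in WT and 9.71, 9.66 and 6.72 CPM in Cys52Ser (3.63-fold lower, edgeR adjusted p = 0.0303). Loxl2 was 1.89-fold lower (edgeR adjusted p = 0.0369). In Cys52Ser replicate 2, where Eln was inside the WT range, all 3 were below every WT library. Of 4 latent TGF-beta binding proteins, which dock on fibrillin microfibrils, Ltbp2 fell. It had 48.7, 25.3 and 21.3 CPM in WT and 9.64, 6.37 and 5.46 CPM in Cys52Ser (4.44-fold lower, edgeR adjusted p = 0.0314). Ltbp3 had a log2 fold change of -1.31 (edgeR adjusted p = 0.101).

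Among 10 other microfibril, fibulin and EMILIN family genes, 7 log2 fold changes were negative and 3 positive. In 4 of the 10 every Cys52Ser library lay below every WT library (15.2% of all tested genes). In 1 every one lay above (14.4% of all tested genes). The only call was for Mfap2, as lower. This microfibril-associated glycoprotein had 4.91, 4.77 and 2.50 CPM in WT and 0.643, 1.09 and 1.07 CPM in Cys52Ser (4.35-fold lower, edgeR adjusted p = 0.0338). Mmrn2, an endothelial member of the EMILIN family, had a log2 fold change of 0.42 (edgeR adjusted p = 0.115). Of 8 ADAMTS and ADAMTS-like genes, Adamtsl2, whose protein binds fibrillin-1 and LTBP1, fell 2.99-fold (edgeR adjusted p = 0.0433) and Adamtsl1 2.53-fold (edgeR adjusted p = 0.0441). Of 9 tested enzymes that can degrade elastin, Mmp7 fell 7.71-fold, Mmp2 4.02-fold and Ctsk 3.81-fold, with edgeR adjusted p of 0.033, 0.033 and 0.0223. Mmp7 is known from bile duct epithelium, Mmp2 from fibroblasts and stellate cells. Of 10 integrin subunits, Itga8, a marker of stellate and smooth muscle cells whose receptor binds RGD ligands, had 73.9, 42.4 and 31.6 CPM in WT and 12.5, 9.68 and 9.46 CPM in Cys52Ser (4.68-fold lower, edgeR adjusted p = 0.0229). Itgb8, part of a receptor that activates latent TGF-beta, fell 4.29-fold (edgeR adjusted p = 0.0243). Of the 12 called partners, 6 overlap another annotated gene (Lox, Loxl2, Ltbp2, Adamtsl1, Mmp7 and Itga8) and are uncertain to that extent.

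The deposited table carries its own Reactome annotation, looked up after the values were seen. Its term for elastic fibre formation held 40 genes, among them 8 of the 10 members, all but Fbln1 and Efemp1. Of its 31 tested genes outside the 10, 8 fell and 2 rose, against 2.46% and 2.52% of all tested genes. Their median log2 fold change was -0.16. Of the 8 that fell, 7 are the partners Lox, Loxl1, Loxl2, Ltbp2, Mfap2, Itga8 and Itgb8 described above, and the other is Tgfb2, which encodes a TGF-beta ligand and was 4.16-fold lower (edgeR adjusted p = 0.0338). Those that rose were Fn1 and Furin, the fibronectin gene and the protease that processes profibrillin, with log2 fold changes of 0.80 and 0.82 (edgeR adjusted p = 0.0359 and 0.0299).

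Profiles over the 6 libraries were compared by the root-mean-square difference of log2 CPM centred on each gene's mean. Among the 10 genes the closest pair was Fbln5 and Efemp2, at 0.16, followed by Efemp1 with Fbln5 at 0.22 and Emilin1 with Fbln5 at 0.24. Fbn1 and Mfap4 were each other's nearest at 0.31, and Eln and Fbln1 at 0.40. Fbln2 and Fbn2 were far from any other member, at 0.697 or more and 0.997 or more. In both Eln with Fbln1 and Fbn1 with Mfap4, WT replicate 1 was the highest WT library and Cys52Ser replicate 2 the highest Cys52Ser library. Outside the 10, nearness to the mean member profile was ranked over tested genes with a symbol, leaving out Gm and Rik gene models and pseudogenes. The nearest were Ano1, Plet1 and Zc2hc1a, at 0.07, 0.11 and 0.13. Ano1 had 19.5, 13.01 and 9.77 CPM in WT and 4.35, 8.23 and 4.29 CPM in Cys52Ser (edgeR adjusted p = 0.0782). All profiles share the same 6 libraries, and a close profile is a description of these libraries.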

How the data were processed

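Liver poly(A) RNA of 6 mice was sequenced as paired reads from strand-marked libraries with molecular identifiers, per the labels' protocols. Per the file headers, the deposited table gives for each gene and library an FPKM value and an estimated count. According to the submitters' processing notes, StringTie 1.3.4d, HISAT2 2.0.4, cutadapt 1.9, UMI-tools, edgeR and DESeq2 took part, in roles not stated, with mm9 as the build. Coordinates of 25674 of 28524 matched genes (90.0%), the 10 members included, equal those of GENCODE M21, so GRCm38 is given. The counts are whole numbers, and the sources used here do not say if they stand for reads or fragments. For each of 6261 genes with 1000 or more counts in every library, count divided by FPKM differed between libraries by 1 constant per library within 1%, so the authors' FPKM carries the same information with library and length scaling. No 2 libraries of a group agreed within sampling noise (chi-square per degree of freedom 86.9 or more).

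Groups came from the titles. The test was edgeR 4.0.16 in R 4.3.3 on the counts of all 6 libraries (filterByExpr with a minimum count of 10, TMM, robust quasi-likelihood fit, genotype only), with Benjamini-Hochberg adjustment over 18648 genes and a threshold of 0.05. It was tested on simulated data. There it called 37 of 50 genes with a true log2 fold change of 2 and 42 of 50 at -2. At 1 and -1 it called 22 of 50 and 23 of 50, so changes of that size were often missed. Of 17736 unchanged genes it called 7. A standard error is the log2 fold change divided by the square root of F. Named genes are the 10 members, every called gene and the 2 smallest p-values of each partner list, the called genes and the most abundant gene of each marker list, and the 3 nearest profiles (log2 CPM with a prior count of 2). Further genes (Prdx1, Myh11, Vipr1, Fn1, Furin, Tgfb2, Itgb3 and overlapping genes) were named after their values were seen. Members and lists were chosen with earlier results of these data known. Alternatives were other scalings and filters, a non-robust fit, DESeq2 1.42.0, a replicate block, each library left out, and limma 3.58.1 on log2(FPKM + 0.5), with pseudocounts of 0.1 and 1, without the filter on low values (0.5 FPKM in 3 libraries) and, added after seeing the data, on FPKM rescaled by TMM. The same alternatives were added for the partner genes after seeing the data.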

Additional observations from a re-analysis of the deposited data

How the results depend on the processing

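No gene of the 10 was called higher in any of 19 alternatives. The number called lower was 2 with all libraries, 7 with library totals alone and with DESeq2, 5 with a mean CPM of at least 1, 4 in limma on TMM-rescaled FPKM, 6 in limma with each of the pseudocounts 0.5, 0.1 and 1, and 0 to 3 with 1 library left out. All genes changed numbered 928, against 3017 with library totals alone (9.71% of them higher instead of 50.5%), 2493 with DESeq2, 3345, 3340 and 3327 in limma with pseudocounts of 0.5, 0.1 and 1 (11.1%, 10.8% and 11.2% of them higher), and 28 to 790 with 1 library left out. Limma on FPKM with no filter called 174 higher and 1091 lower, so that 13.8% were higher. Leaving out WT replicate 2 gave 57 calls, Cys52Ser replicate 1 gave 31 and Cys52Ser replicate 3 gave 28, of which 75.4%, 71.0% and 75.0% were higher. Partner genes called lower numbered 12, 21 with library totals alone and 0 to 12 with 1 library left out. DESeq2 called 1 partner gene higher. Fbn1 was called lower in 10 of 19 alternatives, Efemp2 and Mfap4 in 9 each, Efemp1 and Emilin1 in 5, Fbln5 in 14, Fbn2 in 11 of 15, and Eln, Fbln1 and Fbln2 in none. Fbn2 lies under the FPKM filter, so 4 limma fits did not test it, and without that filter its log2 difference was -0.85, since the pseudocount exceeds its level. Fbln2 turned negative with library totals alone (-0.16), the replicate block (-0.18), without Cys52Ser replicate 2 (-0.71), in limma with pseudocounts of 0.5 (-0.34, also without the filter), 0.1 (-0.48) and 1 (-0.25), and on TMM-rescaled FPKM (-0.087). Its range with 1 library left out was -0.714 to 0.539, and it passed in none. The cause of these changes was not tested. Same-numbered libraries did not deviate together (correlations -0.039, 0.137 and 0.018), so the numbers were not taken to pair the mice; with the replicate block 2 of the 10 genes were called lower, Fbn1 and Fbn2 (edgeR adjusted p = 0.0324 and 0.0415), and the count of all calls was 729, with 58.4% higher. Depth limits Fbn2 most, with 13 to 34 counts per Cys52Ser library.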
